A study of Homo sapiens with 3 samples.

Results

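The urokinase system and the matrix metalloproteinases were followed through 9 genes, PLAU, PLAUR, PLAT, MMP1, MMP2, MMP9, MMP10, MMP14 and TIMP3, after knockdown of the kinase AKT1 in a human tongue carcinoma line. A probe set, the group of array probes that reads a transcript, was taken when the platform's annotation named 1 of these genes and no other. All 9 genes were found, among 18239 genes read by such a probe set, with 30 of the 49386 probe sets on the array. The cells were GFP-SAS, the labels' name for a culture of the established line SAS. They had been given a small interfering RNA (siRNA) at 10 nM for 24 h, in 1 library each for siAkt1-22 and siAkt1-58, which are directed against AKT1, and in 1 library for siNT, the non-targeting control. The question was how the expression of these genes differed after AKT1 knockdown. The labels do not say whether the GFP-SAS culture is 1 clone, nor whether the libraries came from separate cultures.

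Urokinase, the product of PLAU, is a secreted serine protease that cleaves plasminogen into plasmin, and its receptor uPAR, encoded by PLAUR, holds it at the cell surface. PLAT encodes tissue plasminogen activator, a related protease with the same substrate. Plasmin degrades fibrin and matrix and can activate the latent forms of several matrix metalloproteinases (MMPs), zinc-dependent proteases that cut collagens and other matrix proteins. In squamous carcinomas of the mouth these enzymes are known as markers of an invasive tumour edge. TIMP3 encodes an inhibitor of MMPs and of ADAM proteases that stays bound to the matrix.

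Sequence upstream of a transcription start was available from RefSeq (build GRCh38.p14) for 5 of the 9 genes. MMP1, MMP2, MMP9 and PLAT are named only. The 250 bases before the start are shown for the ligand PLAU (the second of 2 starts in the table used, chr10:73910882-73911131, + strand), for its receptor PLAUR (chr19:43670170-43670419, - strand) and for MMP10 (chr11:102780629-102780878, - strand), because PLAU and PLAUR are the ligand and receptor whose readings are compared and MMP10 carries the motifs typical of an inducible secreted MMP. Capitals mark matches on either strand to the AP-1 motif TGANTCA, the GC box GGGCGG and the TATA box TATAAA.
PLAU: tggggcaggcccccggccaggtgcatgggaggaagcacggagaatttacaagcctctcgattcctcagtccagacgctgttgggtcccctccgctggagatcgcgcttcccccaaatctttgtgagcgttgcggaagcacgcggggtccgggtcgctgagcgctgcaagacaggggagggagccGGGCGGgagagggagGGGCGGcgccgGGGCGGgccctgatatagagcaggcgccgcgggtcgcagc
PLAUR: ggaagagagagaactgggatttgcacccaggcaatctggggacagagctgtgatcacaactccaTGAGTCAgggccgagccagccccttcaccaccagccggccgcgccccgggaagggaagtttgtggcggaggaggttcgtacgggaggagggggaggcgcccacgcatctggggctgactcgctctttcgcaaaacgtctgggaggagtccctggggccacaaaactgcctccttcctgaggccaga
MMP10: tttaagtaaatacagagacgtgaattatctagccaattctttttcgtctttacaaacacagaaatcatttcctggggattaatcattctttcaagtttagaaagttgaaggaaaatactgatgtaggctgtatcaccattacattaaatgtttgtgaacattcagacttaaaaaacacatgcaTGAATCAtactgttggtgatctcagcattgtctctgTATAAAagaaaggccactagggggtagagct
The PLAU window held 3 GC boxes, beginning 66, 51 and 40 bases before the start, and neither of the other motifs. The window of the first PLAU start held none of the 3 motifs. The PLAUR window held 1 AP-1 motif, TGAGTCA, beginning 186 bases before the start. The MMP10 window held the AP-1 motif TGAATCA 67 bases before the start and a TATA box 31 bases before it. The windows of MMP14 and TIMP3 held GC boxes and neither of the other motifs. Of all 35116 windows of this length, 6.57% held the AP-1 motif, 42.6% a GC box and 10.7% the TATA box. A match is a run of letters, not a measured binding site.

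The values are log2 expression values. Their medians were 4.59 with siAkt1-22, 4.58 with siAkt1-58 and 4.59 with siNT over all probe sets. The target was lower with both siRNAs in its brighter probe sets: the brightest AKT1 probe set read 3.67 with siAkt1-22 and 3.47 with siAkt1-58, against 6.75 with siNT. The next read 4.07 with siAkt1-22 and 4.02 with siAkt1-58, against 5.31 with siNT. The dimmest, below the filter level given later in this paragraph, read 3.47 in every library. Among single-gene probe sets, siAkt1-22 left 4.19% at least 2-fold below siNT and 2.5% at least 2-fold above it, while siAkt1-58 left 2.27% below and 0.921% above. Spiked-in poly-A RNA, read by 24 control probe sets, stood at a median of -0.56 from siNT with siAkt1-22 and of -0.01 with siAkt1-58. Of 8 listed markers of squamous epithelium 5 were measured, and all 5 were at or above the filter level of 3.63, the 30th percentile of the mean log2 value, although KRT14 read only 3.67 with either siAkt1 siRNA and 3.66 with siNT. For other cell types, 3 of 8 measured fibroblast markers, 1 of 5 leukocyte markers and 2 of 4 endothelial markers reached that level. Among leukocyte markers PTPRC read 2.89, CD14 2.90 and CD3E 3.56 in every library, while CD68 read 6.75 with siAkt1-22 and 7.14 with siAkt1-58, against 6.33 with siNT. ITGAM read 4.45 with siAkt1-22 and 3.07 with siAkt1-58, against 3.06 with siNT. The part of these markers in the results was not tested.

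None of the 30 probe sets was at least 2-fold from siNT on the same side with both siRNAs, a limit that 1.19% of all 45253 single-gene probe sets met. With siAkt1-22 alone 1 of the 30, an MMP2 probe set, was at least 2-fold lower (4.19% of all single-gene probe sets). None was at least 2-fold higher with it (2.5% of all). With siAkt1-58 alone none was at least 2-fold lower or higher (2.27% and 0.921% of all). These counts lie near the shares of all probe sets. At least 1.5-fold lower were 3 with siAkt1-22 (8.49% of all single-gene probe sets) and 4 with siAkt1-58 (5.71% of them). By side alone, 9 of the 30 were lower with both siRNAs (18.7% of all), 5 were higher with both (24.2% of all), and 3 had 1 identical value in every library (20.6% of all). The shares come from a dimmer set: 27 of the 30 reached the filter level, against 31677 of all 45253. The median difference over the 30 was -0.01 with either siRNA, against 0 for all single-gene probe sets.

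The moderated test of limma, which set both siAkt1 libraries against siNT, called 0 of the 27 probe sets of these genes that reached the filter level (lowest adjusted p = 0.606). It called 0% of all 31677 tested, of which 2700 (8.52%) had an unadjusted p under 0.05, and none of the 27 was among them. This fit had 1 residual degree of freedom, and in simulated libraries of this design it found 0 of 200 probe sets shifted by a log2 difference of 3. The spread it uses is that between siAkt1-22 and siAkt1-58, and the lone siNT library is assumed to vary like them. The remaining values are therefore given library by library, and siNT enters both differences. In the same simulated libraries, the rule of at least 2-fold with both siRNAs found 36.5% of the 200 probe sets shifted by 1. It found 95% of those shifted by 2, and it also called 1080 and 1001 unshifted probe sets. Their noise was drawn separately for each library. A count of 0 by that rule can therefore miss shifts near 2-fold. Where a mean difference carries an SD, the SD comes from the 2 siAkt1 libraries, holds any effect particular to 1 siRNA, and does not include the error of siNT.

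**Figure D1:**
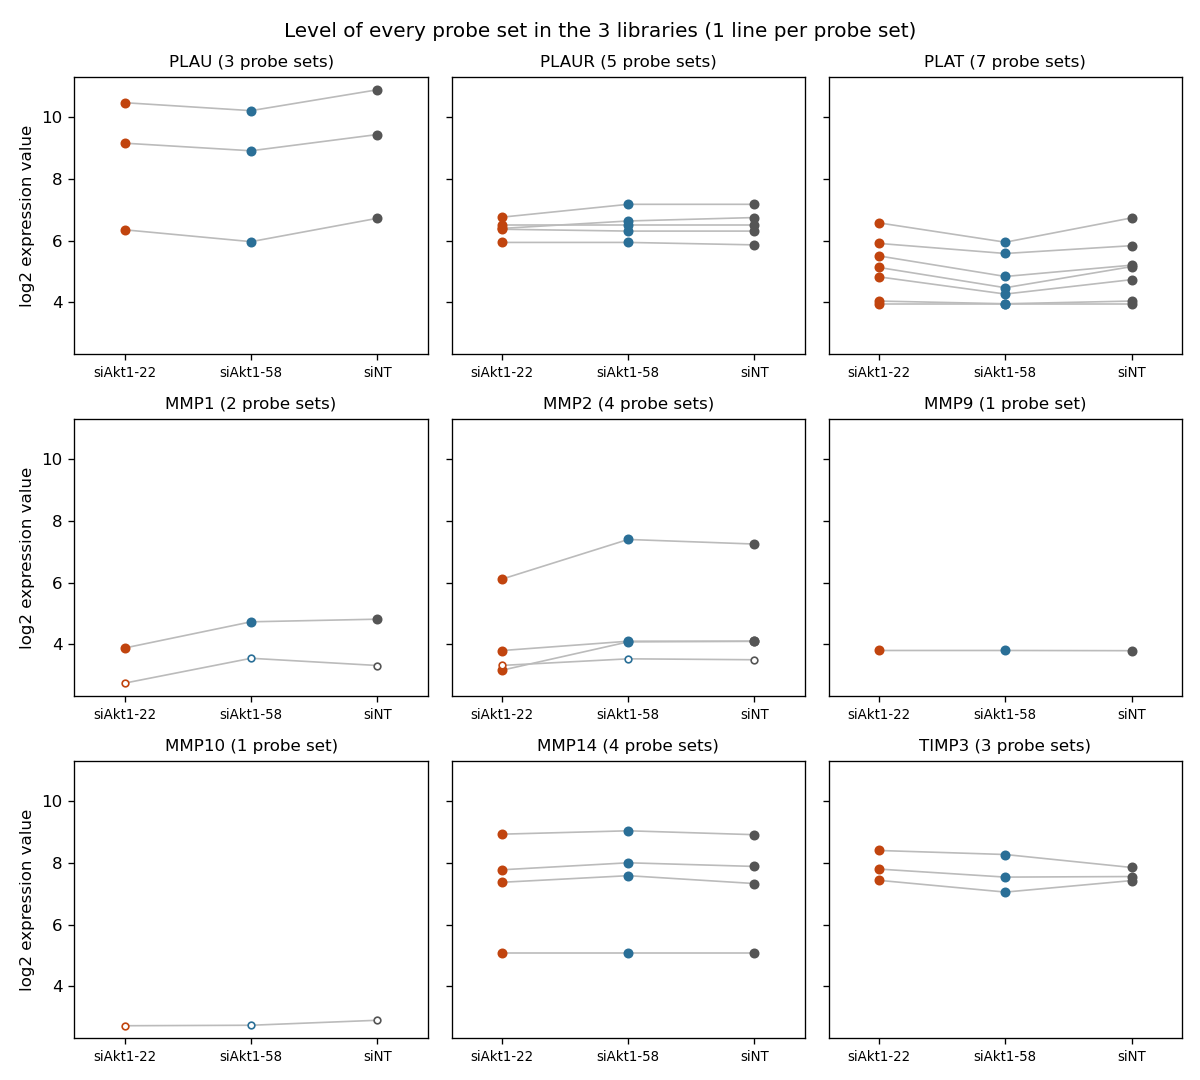
The panels give the log2 expression value (vertical axis) of each of the 30 probe sets in the siAkt1-22, siAkt1-58 and siNT libraries, with 1 line per probe set and open symbols for the 3 probe sets whose mean lay below the filter level of 3.63. All 3 PLAU lines are highest at siNT, all 4 MMP2 lines are lowest at siAkt1-22, and levels of different probe sets cannot be compared with each other.

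PLAU, the urokinase gene, was lower than siNT with both siRNAs in each of its 3 probe sets. The brightest probe set read 10.46 with siAkt1-22 and 10.20 with siAkt1-58, against 10.88 with siNT. The next read 9.15 with siAkt1-22 and 8.90 with siAkt1-58, against 9.43 with siNT. The last read 6.35 with siAkt1-22 and 5.97 with siAkt1-58, against 6.72 with siNT. In every probe set siAkt1-58 gave the lowest value and siNT the highest, so both siAkt1 libraries lay below siNT. In bulk RNA fewer expressing cells and less RNA per cell cannot be told apart. As folds in its brightest probe set, PLAU with siAkt1-22 was 1.34-fold and with siAkt1-58 1.60-fold lower than with siNT, and between 1.21-fold and 1.69-fold lower over all probe sets and siRNAs. The mean difference in the brightest probe set was -0.55 ± 0.18 (SD, n = 2), with limma's adjusted p = 0.793. Of the 31677 probe sets tested, 15.9% had a lower difference than this one with siAkt1-22 and 6.55% had a lower one with siAkt1-58. The probe sets read the same transcripts and are no replicates of the condition.

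The receptor gene PLAUR did not share this pattern across its 5 probe sets. Its brightest probe set read 6.76 with siAkt1-22 and 7.17 with siAkt1-58, against 7.17 with siNT. The second read 6.39 with siAkt1-22 and 6.63 with siAkt1-58, against 6.75 with siNT. These 2 sets, whose names end in _x_at, the manufacturer's mark for probes that can match other sequences as well, were lower with siAkt1-22, at -0.42 and -0.35 from siNT. The other 3 stood within 0.08 of siNT with both siRNAs, and 1 of them read 6.50 in every library. With siAkt1-58, 3 of the 5 sets, the brightest among them, had exactly the siNT value. Of all single-gene probe sets, 20.6% had 1 identical value in every library, so such ties cannot show that expression was unchanged. Averaged over the probe sets, PLAUR differed from siNT by -0.13 with siAkt1-22 and by -0.01 with siAkt1-58.

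PLAT, which encodes tissue plasminogen activator, was lower with siAkt1-58 in 6 of its 7 probe sets, and the seventh read 3.97 in every library. Its brightest probe set read 6.57 with siAkt1-22 and 5.95 with siAkt1-58, against 6.73 with siNT. The folds below siNT were 1.12 for siAkt1-22 and 1.72 for siAkt1-58. Only 5.14% of the probe sets tested had a lower difference with siAkt1-58. With siAkt1-22 the 7 probe sets ran from -0.16 to 0.30 and had a median of 0, with 2 of them lower and 3 higher than siNT. The siAkt1-58 differences ran from -0.79 to 0 with a median of -0.37. In its 5 brightest probe sets, PLAT read between 1.25-fold and 1.58-fold lower with siAkt1-58 than with siAkt1-22. Some of these 5, though not the brightest, also carry the _x_at mark. PLAU and PLAT, both plasminogen activators, thus had their lowest readings in the siAkt1-58 library, while PLAU alone of the pair was also lower with siAkt1-22 in all its probe sets.

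**Figure D2:**
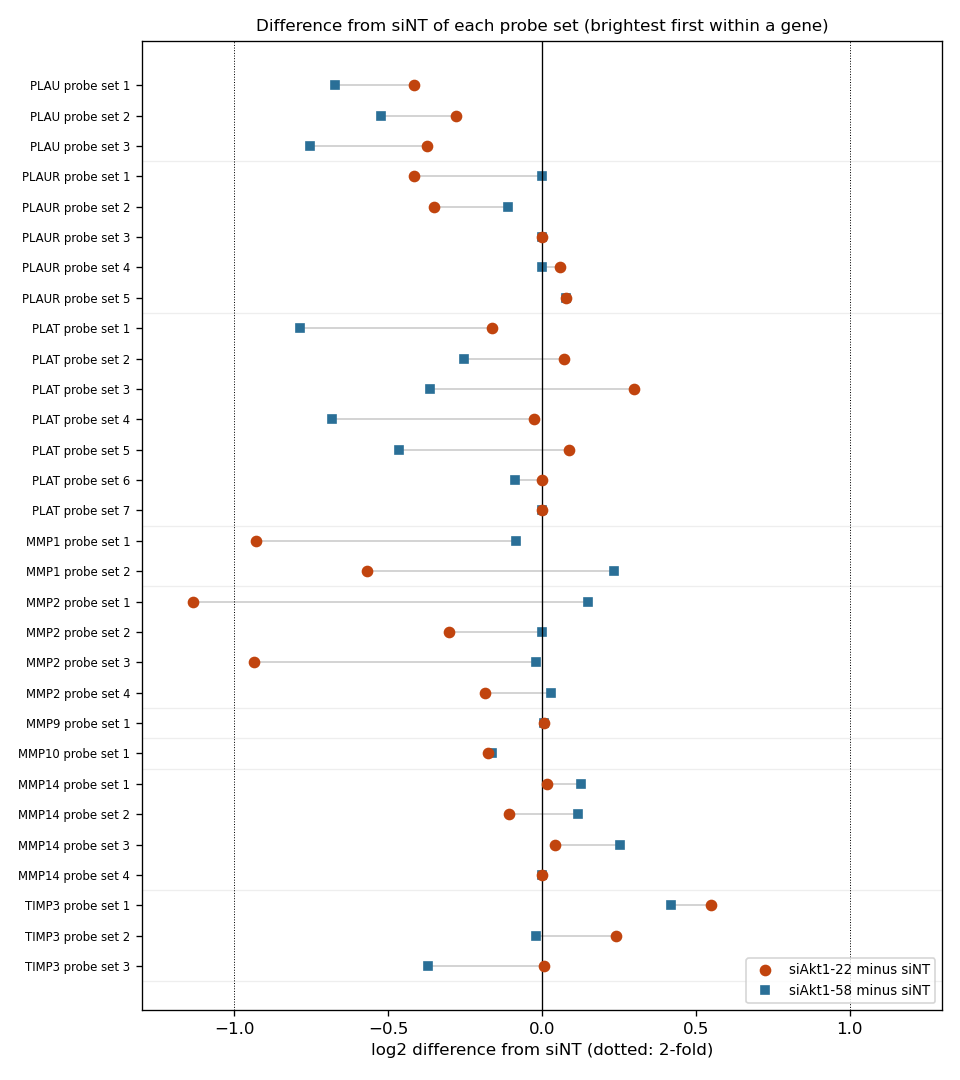
Each row is 1 probe set, brightest first within a gene, and the horizontal axis is the log2 difference from siNT with siAkt1-22 (circles) and siAkt1-58 (squares). PLAU lies left of 0 with both siRNAs, PLAT mainly with siAkt1-58, MMP1 and MMP2 mainly with siAkt1-22, and the brightest MMP2 probe set is the 1 symbol beyond the dotted 2-fold line.

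MMP2 and MMP1, both secreted MMPs, had their lowest readings in the siAkt1-22 library. MMP2 encodes gelatinase A, which cleaves denatured collagen and type IV collagen. Its brightest probe set read 6.11 with siAkt1-22 and 7.40 with siAkt1-58, against 7.25 with siNT. It was 2.19-fold lower with siAkt1-22 than with siNT, a difference of -1.13, and stood at 0.15 with siAkt1-58. Between the siRNAs, it was 2.43-fold lower with siAkt1-22 than with siAkt1-58, a gap that 3.71% of all single-gene probe sets reached at 2-fold or more in that direction. Its other probe sets were dim, between 3.17 and 4.10 over the libraries, and were also lower with siAkt1-22, at -0.30, -0.94 and -0.18. With siAkt1-58 they lay between -0.02 and 0.03. The dimmest of them, with a mean of 3.45, was below the filter level. At such levels they cannot show whether expression was lower, so the MMP2 reading rests on its brightest probe set in the siAkt1-22 library. Of the 31677 probe sets tested, 4.80% had a lower difference with siAkt1-22 than the brightest MMP2 set, whose mean difference over both siRNAs was -0.49 ± 0.91 (SD, n = 2).

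MMP1 encodes interstitial collagenase, which cuts fibrillar collagen. Its brighter probe set read 3.89 with siAkt1-22 and 4.73 with siAkt1-58, against 4.82 with siNT. It was 1.91-fold lower with siAkt1-22 and stood at -0.08 with siAkt1-58. The dimmer set, below the filter level, read 2.75 with siAkt1-22 and 3.55 with siAkt1-58, against 3.32 with siNT. In both sets the siAkt1-22 library was lowest, while siAkt1-58 lay on either side of siNT. Of the probe sets tested, 6.68% had a lower difference with siAkt1-22 than the brighter set. These MMP1 readings lie near the low end of the array's range, where differences are compressed. Alone they cannot show whether MMP1 expression was lower. The siAkt1-22 library, in which MMP1 and MMP2 were low, is also the one whose poly-A controls read -0.56 from siNT, and the part of that shift in these readings was not tested.

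MMP9 and MMP10 were read by 1 probe set each, both dim. MMP9, which encodes gelatinase B, read 3.81 with siAkt1-22 and 3.81 with siAkt1-58, against 3.80 with siNT. MMP10, which encodes stromelysin 2, read 2.73 with siAkt1-22 and 2.75 with siAkt1-58, against 2.91 with siNT, below the filter level in every library. At such levels these probe sets cannot show whether expression was lower after knockdown.

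MMP14 encodes MT1-MMP, a collagenase anchored in the membrane that also activates latent MMP2. Its brightest probe set read 8.92 with siAkt1-22 and 9.03 with siAkt1-58, against 8.91 with siNT. The third probe set read 7.37 with siAkt1-22 and 7.58 with siAkt1-58, against 7.33 with siNT, and the dimmest read 5.07 in every library. With siAkt1-58 the first 3 were higher than siNT by 0.12 to 0.25, and with siAkt1-22 the 4 sets lay between -0.11 and 0.04. The widest difference of any MMP14 probe set from siNT was 0.25.

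TIMP3, the inhibitor, gave discordant probe sets. The brightest read 8.40 with siAkt1-22 and 8.27 with siAkt1-58, against 7.85 with siNT, a mean difference of 0.48 ± 0.09 (SD, n = 2) with limma's adjusted p = 0.631. The second read 7.80 with siAkt1-22 and 7.54 with siAkt1-58, against 7.55 with siNT. The third read 7.43 with siAkt1-22 and 7.05 with siAkt1-58, against 7.42 with siNT. All 3 were above siNT with siAkt1-22, but with siAkt1-58 they stood at 0.42, -0.02 and -0.37. Averaging the probe sets moved the mean difference to 0.14, so the size of the TIMP3 reading depends on which set stands for the gene.

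**Figure D3:**
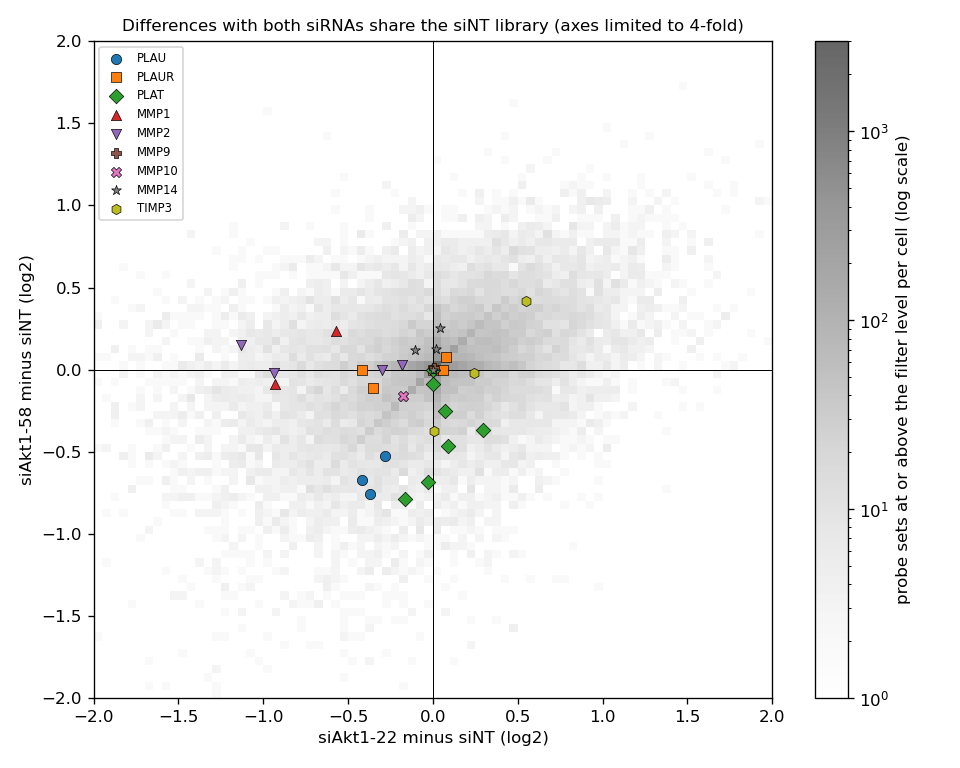
The log2 difference from siNT with siAkt1-22 (horizontal axis) is set against that with siAkt1-58 (vertical axis) for the 30 probe sets, over grey cells that count the probe sets at or above the filter level, of which 558 lie beyond the axes. PLAU lies in the lower left, MMP1 and MMP2 lie to the left near the horizontal line, PLAT lies below it, and both axes share the siNT library.

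Likeness to PLAU and PLAUR was measured as the Euclidean distance between the pairs of log2 differences, by the brightest probe set of each gene, over the 3 libraries. Nearest to PLAU were PROSER2 (-0.41 with siAkt1-22 and -0.68 with siAkt1-58), CCNC (-0.43 and -0.69) and ZBTB24 (-0.40 and -0.69), and 52 of 14136 genes lay within 0.1. Nearest to PLAUR were E4F1 (-0.41 with siAkt1-22 and 0 with siAkt1-58), RTTN (-0.42 and 0) and SSX2IP (-0.41 and 0.01), and 108 genes lay within 0.1. These are neighbours of the brightest PLAUR probe set, which carries the _x_at mark and has the same value with siAkt1-58 as with siNT. E4F1 and RTTN share that tie, at a difference of 0 with siAkt1-58. Averaged over its probe sets, PLAUR was -0.13 with siAkt1-22 and -0.01 with siAkt1-58. With so few libraries many genes share a pattern this closely.

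The neighbouring genes of the pathway were read in 6 lists by the brightest probe set of each gene, and 1 of the 89 genes measured was at least 2-fold from siNT with both siRNAs, against 1.34% of all 18239 genes. That gene was ADAMTS1, a secreted protease that cleaves proteoglycans. It read 7.52 with siAkt1-22 and 7.47 with siAkt1-58, against 8.88 with siNT, and a dimmer ADAMTS1 set stood at -1.37 with siAkt1-22 and at -1.69 with siAkt1-58. By single siRNA, 3 of the 89 were at least 2-fold lower with siAkt1-22 (4.21% of all genes) and 6 with siAkt1-58 (2.51%), and 1 and 0 were at least 2-fold higher (3.16% and 1.09%). Among the 15 ADAM and ADAMTS proteases, 5 were lower and 3 higher with both siRNAs, where 18.1% and 26.5% of all genes were, with a median of 0 with either. A difference of 2-fold or more below siNT was read for 1 of the 15 with siAkt1-22 (4.21% of all genes) and for 4 with siAkt1-58 (2.51%). Those 4 were ADAMTS1, ADAM12, ADAMTS6 (-0.06 with siAkt1-22 and -2.12 with siAkt1-58) and ADAMTS12 (-0.13 and -1.04). ADAM12, a membrane metalloprotease, read 6.19 with siAkt1-22 and 5.73 with siAkt1-58, against 7.19 with siNT. A second ADAM12 set stood at -1.25 and -1.14, while the remaining 3, dimmer, lay between -0.28 and 0.02. ADAM17, the sheddase of TNF and of EGFR ligands, was -0.17 and -0.24 in its brightest probe set, and -0.04 and -0.08 when its 4 sets were averaged. On the other side, ADAM15 was 0.47 with siAkt1-22 and 0.48 with siAkt1-58 (0.27 and 0.26 over its 6 sets), and ADAM10 was 0.08 with both, but -0.13 and 0.22 when its 4 probe sets were averaged.

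Of 17 other genes of the plasmin system, 2 were lower and 8 higher with both siRNAs, where 18.1% and 26.5% of all genes were. Their median difference was 0 with siAkt1-22 and 0.09 with siAkt1-58, against 0 for all genes with either. ANXA2, a subunit of the annexin heterotetramer that binds plasminogen and tissue plasminogen activator at the cell surface, read 12.27 with siAkt1-22 and 12.52 with siAkt1-58, against 11.55 with siNT. All 6 ANXA2 probe sets were higher than siNT with both siRNAs, by 0.25 to 0.86 with siAkt1-22 and 0.80 to 1.39 with siAkt1-58. Several of these carry the _x_at mark. S100A10, the partner of ANXA2 in that complex, was 0.05 with siAkt1-22 and 0.35 with siAkt1-58. MRC2, the endocytic collagen receptor that associates with uPAR, was 0.63 and 0.79 in its brightest probe set, and 0.26 and 0.25 when its 4 sets were averaged. ITGB1, the integrin beta 1 chain, was 0.22 and 0.35.

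SERPINE2, protease nexin 1, an inhibitor of urokinase and thrombin, read 7.33 with siAkt1-22 and 6.15 with siAkt1-58, against 7.72 with siNT. All 6 SERPINE2 probe sets were below siNT with both siRNAs. The 4 brightest stood between -0.53 and -0.38 with siAkt1-22 and between -1.73 and -1.43 with siAkt1-58, so that this inhibitor, like PLAU and PLAT, had its lowest readings in the siAkt1-58 library. ENO1, an enolase that also binds plasminogen, was -0.75 with siAkt1-22 and -0.03 with siAkt1-58.

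The 17 other MMPs measured had a median difference of 0 with either siRNA, with 2 lower and 5 higher with both (18.1% and 26.5% of all genes). Of these, 11 reached the filter level, and none was at least 2-fold from siNT in either library. Of all genes, 4.21% were at least 2-fold lower and 3.16% higher with siAkt1-22, and 2.51% and 1.09% with siAkt1-58. At such shares a count of 0 among 17 genes says little about them. The membrane-type MMP15 was 0.57 with siAkt1-22 and 0.21 with siAkt1-58 (0.29 and 0.10 over its 2 sets), MMP28 0.13 with both (0.46 and 0.11 over its 2 sets), MMP17 0.06 with both and MMP25 -0.09 with both. Among 11 inhibitors and activators of MMPs, 1 was lower and 4 higher with both siRNAs (18.1% and 26.5% of all genes), and the medians were 0 and 0.07. TIMP4, a relative of TIMP3, read 4.28 with siAkt1-22 and 5.86 with siAkt1-58, against 6.26 with siNT, in its only probe set. FURIN, the convertase that activates MMP14, was 0.33 and 0.22, BSG, the MMP inducer basigin, 0.10 and 0.11, and the convertase PCSK6 0.85 and 0.27, but 0.16 and 0.02 when its 7 probe sets were averaged.

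**Figure D4:**
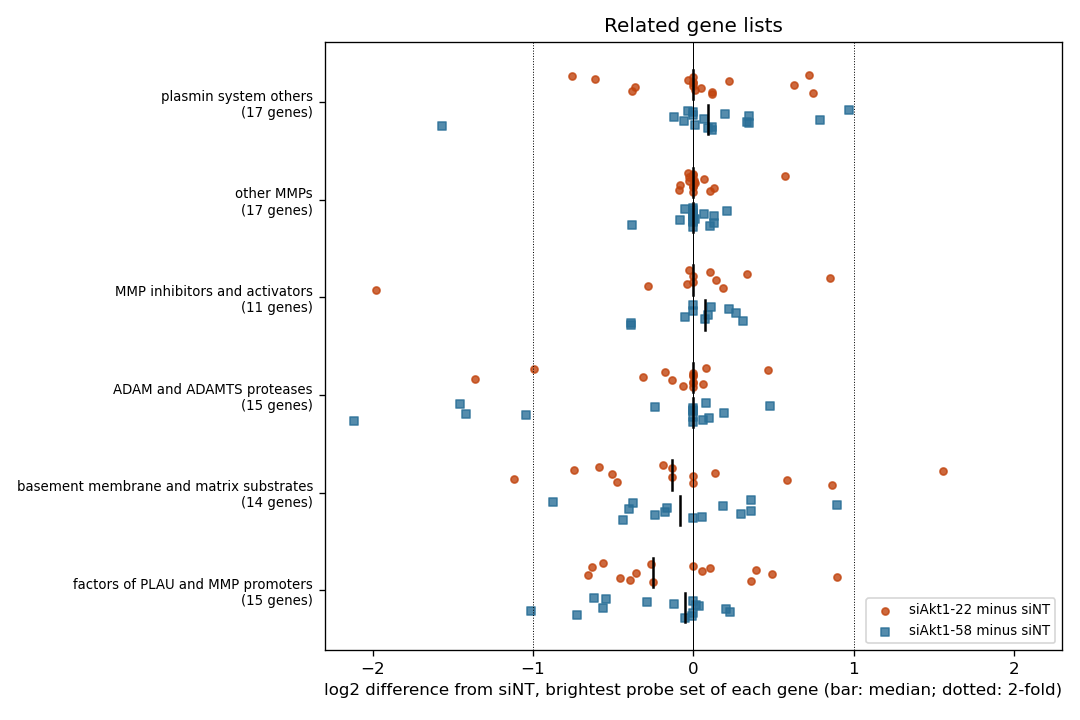
Each symbol is the log2 difference from siNT (horizontal axis) of the brightest probe set of 1 gene with siAkt1-22 (circles) or siAkt1-58 (squares), by list, and black bars mark medians. The medians lie between -0.25 and 0.09, and ADAMTS1 is the 1 gene beyond the dotted 2-fold lines on the same side with both siRNAs.

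Matrix proteins that these enzymes cut were measured in 14 of 17 listed genes, with 4 lower and 1 higher with both siRNAs, against 18.1% and 26.5% of all genes, and medians of -0.13 with siAkt1-22 and -0.08 with siAkt1-58. Of the 14, 13 reached the filter level, against 14137 of all 18239 genes. FN1, fibronectin, read 10.19 with siAkt1-22 and 10.29 with siAkt1-58, against 10.69 with siNT, and all 8 of its probe sets were lower with both. COL4A1, a type IV collagen chain, was -0.59 and -0.88 (-0.30 and -0.52 over its 3 probe sets), and LAMA5, a laminin chain, -0.13 and -0.18 (-0.07 and -0.21 over its 2 sets). COL4A6, another type IV chain, was 1.56 with siAkt1-22 and 0.18 with siAkt1-58, and 0.63 and 0.12 when its 7 probe sets were averaged.

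Of 15 transcription factors known to act on PLAU and MMP promoters, 7 were lower and 4 higher with both siRNAs, against 18.1% and 26.5% of all genes. Their medians were -0.25 with siAkt1-22 and -0.05 with siAkt1-58. Of the 15 factors, 14 reached the filter level, against 14137 of all 18239 genes. JUN, a subunit of AP-1, read 8.10 with siAkt1-22 and 7.75 with siAkt1-58, against 8.76 with siNT, and all 4 of its probe sets were lower with both siRNAs. ETS1 was -0.56 and -0.62, with its other 2 probe sets lower by more, and NFKB1 was -0.39 and -0.73. Averaged over its probe sets JUN was -0.92 with siAkt1-22 and -0.85 with siAkt1-58, so the order of the siRNAs seen in its brightest set did not hold across its sets. On the other side JUNB was 0.90 and 0.23. FOSL2 was 0.49 and 0.21 and FOSB 0.05 and 0.04 in their brightest probe sets. Averaged over the sets, FOSL2 was 0.27 with siAkt1-22 and 0.003 with siAkt1-58, and FOSB was 0.03 and 0.004.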

How the data were processed

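Per the labels, 10 ng of total RNA from each of 3 libraries went into a 3' IVT labelling and onto an Affymetrix array. The deposited log2 values were made by the authors with RMA, per the submitters' processing notes; its version and settings, and hybridisation batches, are not given by these sources. RMA corrects background, equalises the arrays and summarises each probe set, and 20.7% of probe sets had 1 identical value in all 3 libraries. The range of the values, 2.20 to 13.4, gave the log2 scale.

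Of 49386 probe sets, 45253 carried 1 gene symbol (45172 updated through Entrez identifiers, 81 with the older symbol kept), 1327 several, 2713 none, and 93 were controls. The brightest probe set by mean stood for a gene in lists (18239 genes). The 31677 probe sets whose mean reached the 30th percentile were tested by limma 3.58.1 in R 4.3.3 (lmFit, eBayes, Benjamini-Hochberg, threshold 0.05), siAkt1 against siNT. The number of arrays limits the precision. The limma step was tested on simulated data, with noise resampled from siAkt1-22 minus siAkt1-58, and found 0 of 200 probe sets at shifts of 1, 2 and 3. The p-values measure the spread between the 2 siAkt1 libraries, which holds any effect particular to 1 siRNA. Separate cultures are not stated, so the rest of that spread may be technical.

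The members, lists and tests were chosen with earlier results of these data known. Besides AKT1 and the 9 genes, the text names in each list up to 3 genes per side, ranked by the smaller difference with both siRNAs, and the 3 genes nearest to PLAU and PLAUR. S100A10, ADAMTS6, ADAMTS12 and the markers KRT14, PTPRC, CD14, CD3E, CD68 and ITGAM were named outside this rule after their values were seen. Alternatives were median centring, quantile normalization, averaged probe sets, other filters, a 1.5-fold limit, an intensity trend and leaving out each siAkt1 library.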

Additional observations from a re-analysis of the deposited data

How the results depend on the processing

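Leaving out a siAkt1 library gave 18 values of the 9 genes' mean differences, and 10 of them had the other sign or differed by over 1.5 times from the mean. These were PLAUR (-0.42 to 0), PLAT (-0.79 to -0.16), MMP1 (-0.93 to -0.08), MMP2 (-1.13 to 0.15, with siAkt1-58 alone on the other side) and MMP14 (0.02 to 0.13). PLAU lay between -0.67 and -0.42 and TIMP3 between 0.42 and 0.55. Of 27 values from alternatives that keep both libraries, 3 moved by more than the SD between the siAkt1 libraries. MMP9, at 0.007, was 0.010 with median-centred arrays and -0.0047 with quantile normalization, the 1 change of sign among the 27, and TIMP3 was 0.14 with averaged probe sets in place of 0.48. That SD was 0 for MMP9 and wide for genes on which the siRNAs differed. Within it, averaged probe sets brought PLAT from -0.47 to -0.17 and PLAUR from -0.21 to -0.07. They also brought MMP1 from -0.51 to -0.34 and MMP2 from -0.49 to -0.30. The count of member probe sets at least 2-fold from siNT was 0 with both siRNAs, and 0 to 1 when a siAkt1 library was left out (1 with siAkt1-22 alone, the MMP2 set). The count of related genes was 1, 4 to 6 when a siAkt1 library was left out (4 with siAkt1-22 alone, 6 with siAkt1-58 alone), and 6 at a limit of 1.5-fold with both siRNAs. The share of all genes at 1.5-fold with both is not given, so that last count cannot be set against it. Limma called 0 probe sets in each of the 5 alternatives (lowest adjusted p from 0.195 without a filter to 0.799 with quantile normalization; 1166 to 4782 with an unadjusted p under 0.05). Leaving out a siAkt1 library left no residual degree of freedom, so limma gave no value there. No paired analysis was possible because siNT had 1 library and the labels carry no replicate numbers.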
